A study of Homo sapiens with 5 samples.

Results

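SR-related nuclear speckle protein genes are described here through the SRSF9 binding peaks that lie on them. The 10 loci were taken by name and hg19 interval, those of SRRM2, SON, SRRM1, PNN, ACIN1, BCLAF1, THRAP3, LUC7L3, RBM39 and NKTR, and every deposited peak that shared at least 1 nt with an interval was kept. This gave 270 peaks out of 80514 in the table. The intervals were named for the work and no hg19 annotation was at hand to check them, so a peak is given by its locus and not by exon, intron or UTR.

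SRSF9 is a serine/arginine-rich (SR) splicing factor, and the peaks come from eCLIP, in which RNA bound to a protein is fragmented, recovered with that protein and sequenced. All cells were HEK 293T, a human embryonic kidney line, and all overexpressed SRSF9. In 2 libraries ADAR2, an RNA editing enzyme that deaminates adenosines to inosines in duplex RNA, was overexpressed as well, and in the other 2 libraries SRSF9 was overexpressed alone. The series also holds 1 input RNA library from cells overexpressing both proteins. The antibody given in the labels is against SRSF9, whereas MYC-coupled beads are given in the protocol. Whether the paired libraries are from separate cultures is not said, so p-values measure only the spread between these libraries, and that spread may be technical. The stated question was how SRSF9 acts against ADAR2 at its targets.

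SR proteins bind pre-mRNA through RNA recognition motifs and contact other splicing proteins through domains of alternating arginine and serine. SR-related proteins carry such domains too and are concentrated with SR proteins in nuclear speckles, compartments that store and modify splicing factors. They include scaffolds of the speckle, partners of the exon junction complex, which marks spliced mRNA, and proteins that act with the small nuclear RNPs of the spliceosome. The messages of many splicing regulators are themselves bound and spliced by SR proteins.

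Each peak in the table has a class, present only with ADAR2, present only without it, or shared, and the authors' log2 ratio in both libraries of each condition in which it was found. The denominator of the ratio is not named in the table. The columns carry no replicate name, so libraries are numbered first and second by their columns. Over the whole table the median log2 ratio was 1.16 and 1.06 in the first and second library with ADAR2, and 1.07 and 0.24 in those with SRSF9 alone. The second SRSF9-only library thus stood apart from the other 3 on all peaks, and the shared regions below are also given without it. Read depth is not in the table and is unknown here.

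All 10 loci held SRSF9 peaks with ADAR2 co-expressed, and all 10 held peaks with SRSF9 alone. With ADAR2 the loci had 224 peaks and with SRSF9 alone 91, a ratio of 2.46, against 75751 and 8565 in the whole table, a ratio of 8.84. The ratio in a single locus lay between 1.36 in ACIN1 and 4.50 in SON, so each of the 10 loci was below the whole table. Of the 270 peaks, 179 were found only with ADAR2, which is 66.3% (95% Wilson interval 60.5 to 71.7), against 89.4% of the whole table. A further 46 were found only without ADAR2, 17.0% (13.0 to 22.0), against 5.92%, and 45 were shared, 16.7% (12.7 to 21.6), against 4.72%. The intervals cover counting error over peaks only. Each condition has 1 peak set and peaks of 1 transcript are not independent, so the shares were not tested.

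The class makeup moved with peak density and with a cutoff on the log2 ratio. In windows of 34.5 kb, the median width of the 10 intervals, the 1398 windows with at least 12 peaks held 82.2% of peaks only with ADAR2, 8.89% only without it and 8.96% shared, a ratio of 5.10 between the conditions. The locus with the fewest peaks had 12. A cutoff was then set at a log2 ratio above 1 in both libraries. Shared peaks had to pass it in the libraries of both conditions. This left 77 peaks with ADAR2 and 5 with SRSF9 alone in the loci, a ratio of 15.4. In the whole table the ratio was 48.5 under the same rule. Peaks with SRSF9 alone had to pass it in the second SRSF9-only library, whose median was 0.23 in the loci and 0.24 in the table. The cutoff thus cannot tell peak height from the low level of that library. The part of density and of peak height in the difference between the loci and the table was not tested.

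**Figure D1:**
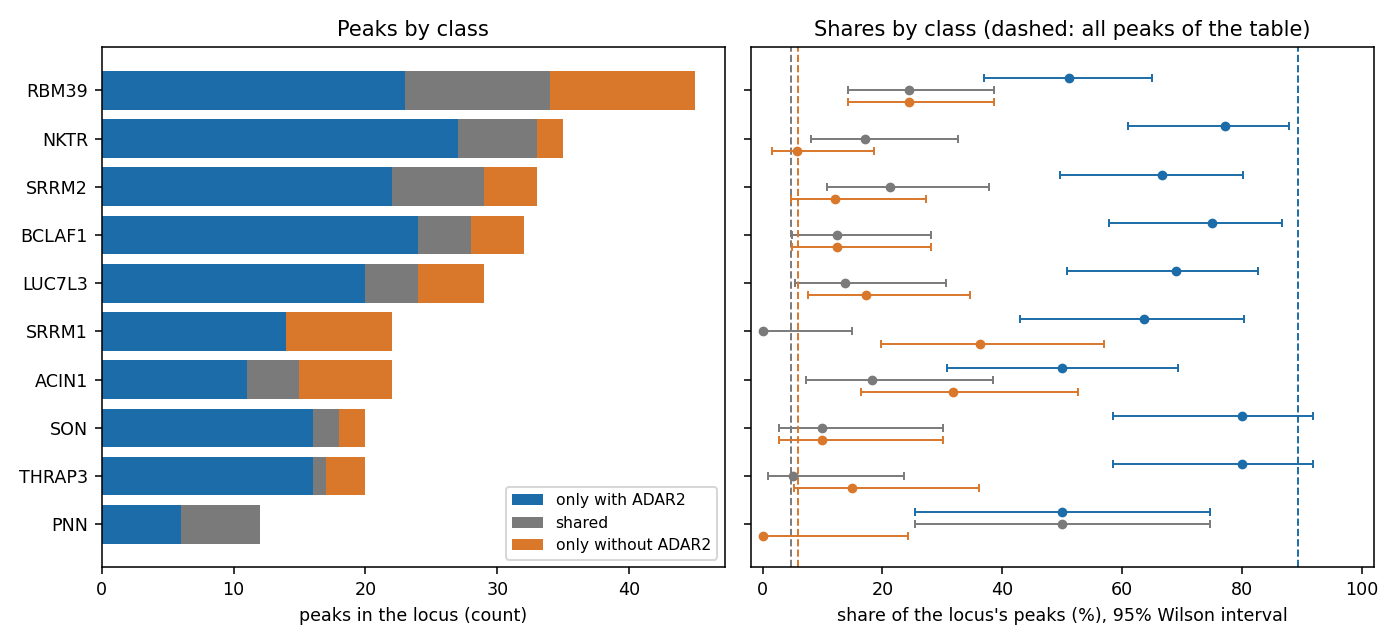
Left, number of peaks in each locus by class. Right, share of each class in the locus with its 95% Wilson interval, and dashed lines at the shares over all 80514 peaks. In 8 of the 10 loci the interval for peaks only with ADAR2 lies wholly below the 89.4% of the table, PNN has no peak only without ADAR2, and SRRM1 has no shared peak.

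The loci differed in how their peaks split. In 8 of them the interval for the share only with ADAR2 lay wholly below the value of the whole table, and SON and THRAP3 were the exceptions, each with 16 of 20 peaks, 80.0% (58.4 to 91.9). The share of shared peaks lay above that of the table with its whole interval in 7 loci, and the share only without ADAR2 in 4. Fewer loci stood apart from the windows with at least 12 peaks. The intervals of BCLAF1, NKTR and LUC7L3 for peaks only with ADAR2 reached 86.7, 87.9 and 82.7%, past the 82.2% of those windows. For shared peaks only SRRM2, PNN and RBM39 stayed wholly above their 8.96%. For peaks only without ADAR2 only SRRM1, ACIN1 and RBM39 stayed wholly above their 8.89%. Peaks were densest in SRRM2, with 1.65 per kb, and in PNN, with 1.33 per kb, and sparsest in THRAP3, with 0.247 per kb over 81 kb. RBM39 held the most peaks, 45, and PNN the fewest, 12. In these counts and densities each row with repeated coordinates is counted.

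The median log2 ratio over the peaks of the 10 loci was 1.42 and 1.06 in the first and second library with ADAR2, and 0.92 and 0.23 in those with SRSF9 alone. Set against the medians over all peaks, the first library with ADAR2 differed most, 0.26 higher in the loci. In 9 of the 10 loci its median was above that of the table, and RBM39 at 1.04 was the exception. With ADAR2 the first library exceeded the second in 168 of 224 peaks, 75.0%, against 61.1% in the table, and with SRSF9 alone in 84 of 91, 92.3%, against 91.6%. PNN had the highest median in the first library with ADAR2, 1.91, and BCLAF1 the highest in the first SRSF9-only library, 1.60. SRRM2 had the lowest median in the second library with ADAR2, 0.49.

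**Figure D2:**
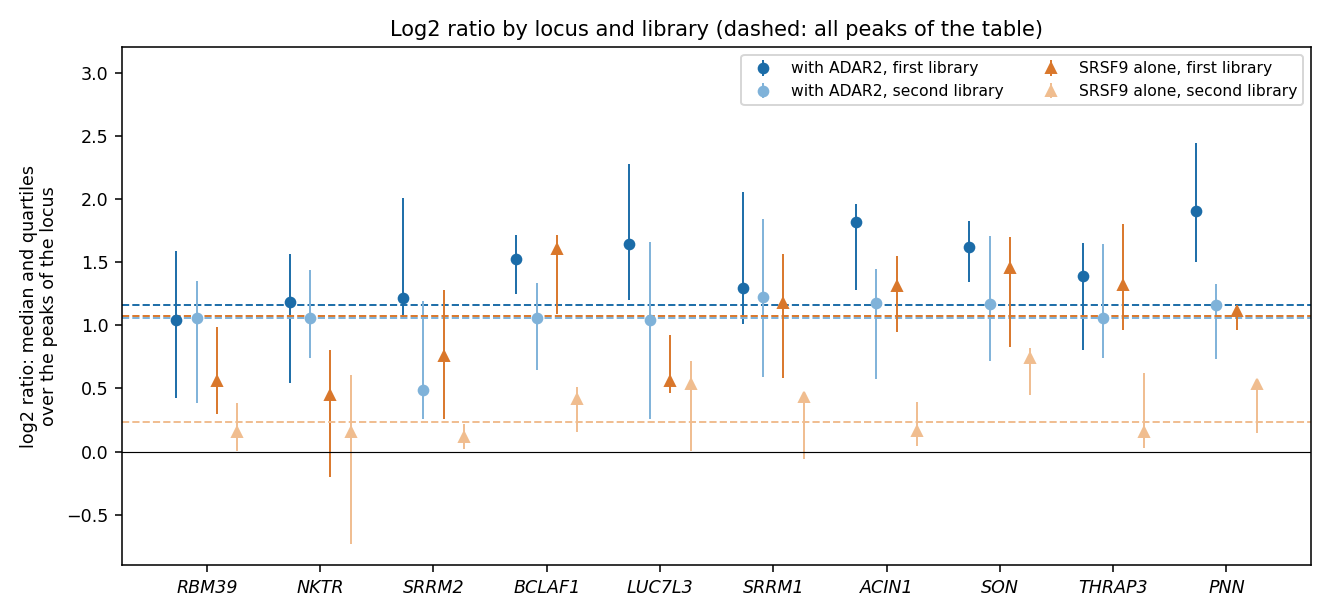
Median and quartiles (bars) of the deposited log2 ratio over the peaks of each locus, for the 2 libraries with ADAR2 (circles) and the 2 with SRSF9 alone (triangles), with dashed lines at each library's median over all peaks of the table. The second SRSF9-only library is lowest in each of the 10 loci, with medians of 0.12 in SRRM2 to 0.74 in SON, and in LUC7L3 it is close to the first SRSF9-only library, at 0.53 and 0.56.

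SRRM2 and SON are large scaffolds of nuclear speckles, and SRRM2 is also a component of the spliceosome. SRRM2, on the plus strand of chromosome 16 (interval 2802001 to 2822000), had 22 peaks only with ADAR2, 7 rows of shared peaks and 4 only without ADAR2, and SON, on the plus strand of chromosome 21 (interval 34915001 to 34950000), had 16, 2 and 2. In SRRM2, 10 of the 33 rows fell within 2 kb, from 2808799 to 2810423. This stretch lies 6.81 to 8.32 kb from the 5′ end of the interval. Among its rows, 3 have the same coordinates, 2810218 to 2810423. That stretch held 5 of the 7 shared rows and 3 of the 4 peaks only without ADAR2. It also held the highest SRRM2 peak only with ADAR2, from 2809923 to 2809968, with log2 ratios of 2.75 and 2.86. The lowest peak only with ADAR2 lay from 2811968 to 2812021, with 0.94 and 0.18. Of the peaks only without ADAR2, the highest, from 2808799 to 2808826, had 1.24 and 0.36, and the lowest, from 2811803 to 2811848, had -0.03 and -0.48. SON peaks stood toward the 5′ end, with 15 of 20 in the 5′ segment of the interval, cut into 3 equal segments, 5 in the middle segment and 0 in the 3′ segment. The highest SON peak only with ADAR2, from 34926299 to 34926345, had 2.28 and 1.58, and the lowest, from 34915749 to 34915751, had 0.86 and 0.15. The SON peaks only without ADAR2 had 1.66 and 1.08 from 34931680 to 34931682, and 1.24 and 0.74 from 34918523 to 34918555. In GENCODE release 29, which is on another build, SRRM2 overlaps ELOB and SON overlaps DONSON and GART, and the table gives no strand, so peaks where these genes overlap cannot be told apart.

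SRRM1, PNN and ACIN1 belong with proteins found on spliced mRNA. SRRM1 is a splicing coactivator, and PNN and ACIN1 are alternative partners in complexes that bind the exon junction complex. These loci had the most contrasting class makeups of the 10. SRRM1, on the plus strand of chromosome 1 (interval 24969001 to 25000000), had 14 peaks only with ADAR2, 8 only without, which is 36.4% (19.7 to 57.0), and 0 shared. A count of 0 among 22 peaks allows a share of up to 13.6%, taking 3 counts as the limit of a count of 0, where the upper Wilson bound is 14.9%. PNN, on the plus strand of chromosome 14 (interval 39644001 to 39653000), had 6 peaks only with ADAR2, 0 only without, which allows a share of up to 25.0% by the same 3 counts and has an upper Wilson bound of 24.2%, and 6 shared rows. All 6 of its rows with SRSF9 alone were thus shared, and they make 5 regions once repeated coordinates are averaged. ACIN1, on the minus strand of chromosome 14 (interval 23527001 to 23565000), had 11, 7 and 4.

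In SRRM1 the conditions had separate peaks that in part lay close together. Between 5 and 6 kb into the interval were 2 peaks only with ADAR2, of which the one from 24974648 to 24974700 had 2.50 and 1.87. The nearest peak only without ADAR2, from 24974827 to 24974849, lay 126 nt further on, with 1.47 and 0.15. Of the other SRRM1 peaks only without ADAR2, that from 24978932 to 24978994 lay 58 nt from a peak with ADAR2, and that from 24993397 to 24993410 lay 5536 nt away. The highest SRRM1 peak only without ADAR2 ran from 24975391 to 24975514, with 1.66 and 0.48, and the lowest was that from 24993397, with -0.76 and -0.85. The highest only with ADAR2, at 24986221, had 2.65 and 2.38 and was 1 nt wide, and the lowest, from 24986708 to 24986716, had -0.58 and -0.81.

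PNN peaks fell at both ends of the interval, 8 in the 5′ segment, 0 in the middle and 4 in the 3′ segment. Its highest peak only with ADAR2, from 39644827 to 39644917, had 2.48 and 1.33, and its lowest, from 39645793 to 39645794, had 1.07 and 0.44. ACIN1 peaks lay toward the 3′ end, with 17 of 22 in the 3′ segment, among them all 7 found only without ADAR2. Its highest peak only with ADAR2, from 23536925 to 23536934, had 2.19 and 1.71, and its lowest, from 23527988 to 23528039, had 1.07 and 0.27. The highest ACIN1 peak only without ADAR2, from 23528296 to 23528342, had 2.07 and 0.87 and lay 4 nt from a peak with ADAR2. The lowest of that class, from 23535174 to 23535225, had 1.31 and 0.01. ACIN1 overlaps C14orf119 at its 5′ end in GENCODE release 29, and 1 shared ACIN1 region, from 23564238 to 23564292, and 2 peaks only with ADAR2 lie within 1 kb of that end of the interval.

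BCLAF1 and THRAP3 are related proteins with roles in mRNA processing and the DNA damage response. BCLAF1, on the minus strand of chromosome 6 (interval 136578001 to 136611000), had 24 peaks only with ADAR2, 4 shared peaks and 4 only without ADAR2, and THRAP3, on the plus strand of chromosome 1 (interval 36690001 to 36771000), had 16, 1 and 3. In THRAP3, 12 of 20 peaks lay in the 3′ segment of the interval. The highest THRAP3 peak only with ADAR2, from 36752829 to 36752873, had 2.56 and 1.74, and the lowest, from 36716909 to 36716934, had 0.81 and 0.06. THRAP3 also held the highest peak only without ADAR2 among the 10 loci, from 36725055 to 36725078, with 2.24 and 1.66, and that peak lay 5458 nt from the nearest peak with ADAR2. By its mean of 1.95 it ranked 197 among the 4763 peaks only without ADAR2. Its value in the first SRSF9-only library, 2.243, recurred in 911 of 8565 peaks of the whole table. The lowest THRAP3 peak of that class, from 36752173 to 36752199, had 0.98 and 0.01. In BCLAF1 the highest peak only with ADAR2, from 136608722 to 136608785, had 2.24 and 1.999, and the lowest, from 136584122 to 136584141, had -0.67 and -0.53. The highest BCLAF1 peak only without ADAR2, from 136582335 to 136582365, had 2.40 and 0.59, and the lowest, from 136590634 to 136590670, had -0.15 and -0.17.

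LUC7L3 is related to a yeast U1 snRNP protein, and RBM39 is an RNA-binding splicing factor related to U2AF. LUC7L3, on the plus strand of chromosome 17 (interval 48796001 to 48830000), had the highest peaks of the 10 loci. From 48814964 to 48815006 the log2 ratio was 3.69 and 2.87 with ADAR2, and from 48817269 to 48817281 it was 3.65 and 2.38, both only with ADAR2. By their means of 3.28 and 3.02 they ranked 444 and 951 among the 71949 peaks of that class. In that locus 3 of 20 peaks only with ADAR2 were above 2 in both libraries, against 6 of 179 over the 10 loci, which is 3.35%, and 9.71% over the table. The lowest LUC7L3 peak only with ADAR2, from 48799896 to 48799923, had 0.07 and 0.06. The classes took different places along LUC7L3. All 5 peaks only without ADAR2 and all 4 shared ones lay in the 3′ segment of the interval, while those only with ADAR2 numbered 4, 10 and 6 in the 5′, middle and 3′ segments. From 48827984 to 48829963, at the 3′ end of the interval, 10 peaks fell within 2 kb. Of these, 3 were only with ADAR2, 4 only without and 3 shared. In GENCODE release 29, on another build, the gene is longer than the interval, at 36.7 kb against 34 kb. The lowest peak only without ADAR2 in any of the 10 loci was also in LUC7L3, from 48822094 to 48822103, with -2.88 and -1.42, and the highest LUC7L3 peak of that class, from 48829720 to 48829735, had 0.92 and 0.73.

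RBM39, on the minus strand of chromosome 20 (interval 34291001 to 34331000), had 23 peaks only with ADAR2, 11 shared rows and 11 only without ADAR2. Its 19, 15 and 11 peaks in the 5′, middle and 3′ segments of the interval were spread along the locus. The highest peak only with ADAR2, from 34301698 to 34301770, had 1.70 and 2.18, and the lowest, from 34326033 to 34326079, had -1.72 and -1.36, which was also the lowest of that class in the 10 loci. The highest peak only without ADAR2, from 34299571 to 34299583, had 2.24 and 1.25, and the lowest, from 34315230 to 34315257, had -0.76 and -1.08.

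NKTR is a large cyclophilin, a peptidyl-prolyl isomerase, with an arginine/serine-rich tail. NKTR, on the plus strand of chromosome 3 (interval 42642001 to 42691000), had 27 peaks only with ADAR2, 6 shared peaks and 2 only without ADAR2. The highest only with ADAR2, from 42666563 to 42666604, had 2.39 and 2.87, and the lowest, from 42670054 to 42670101, had -0.62 and -0.89. The peaks only without ADAR2 lay 13 nt and 79 nt from peaks with ADAR2. They had 0.66 and 0.88 from 42660534 to 42660584, and -0.34 and -1.05 from 42674251 to 42674302. In GENCODE release 29 the 5′ end of NKTR overlaps SEC22C. The shared NKTR region from 42642475 and the peaks only with ADAR2 from 42642189, 42642638 and 42642859 lie within 1 kb of that end of the interval.

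**Figure D3:**
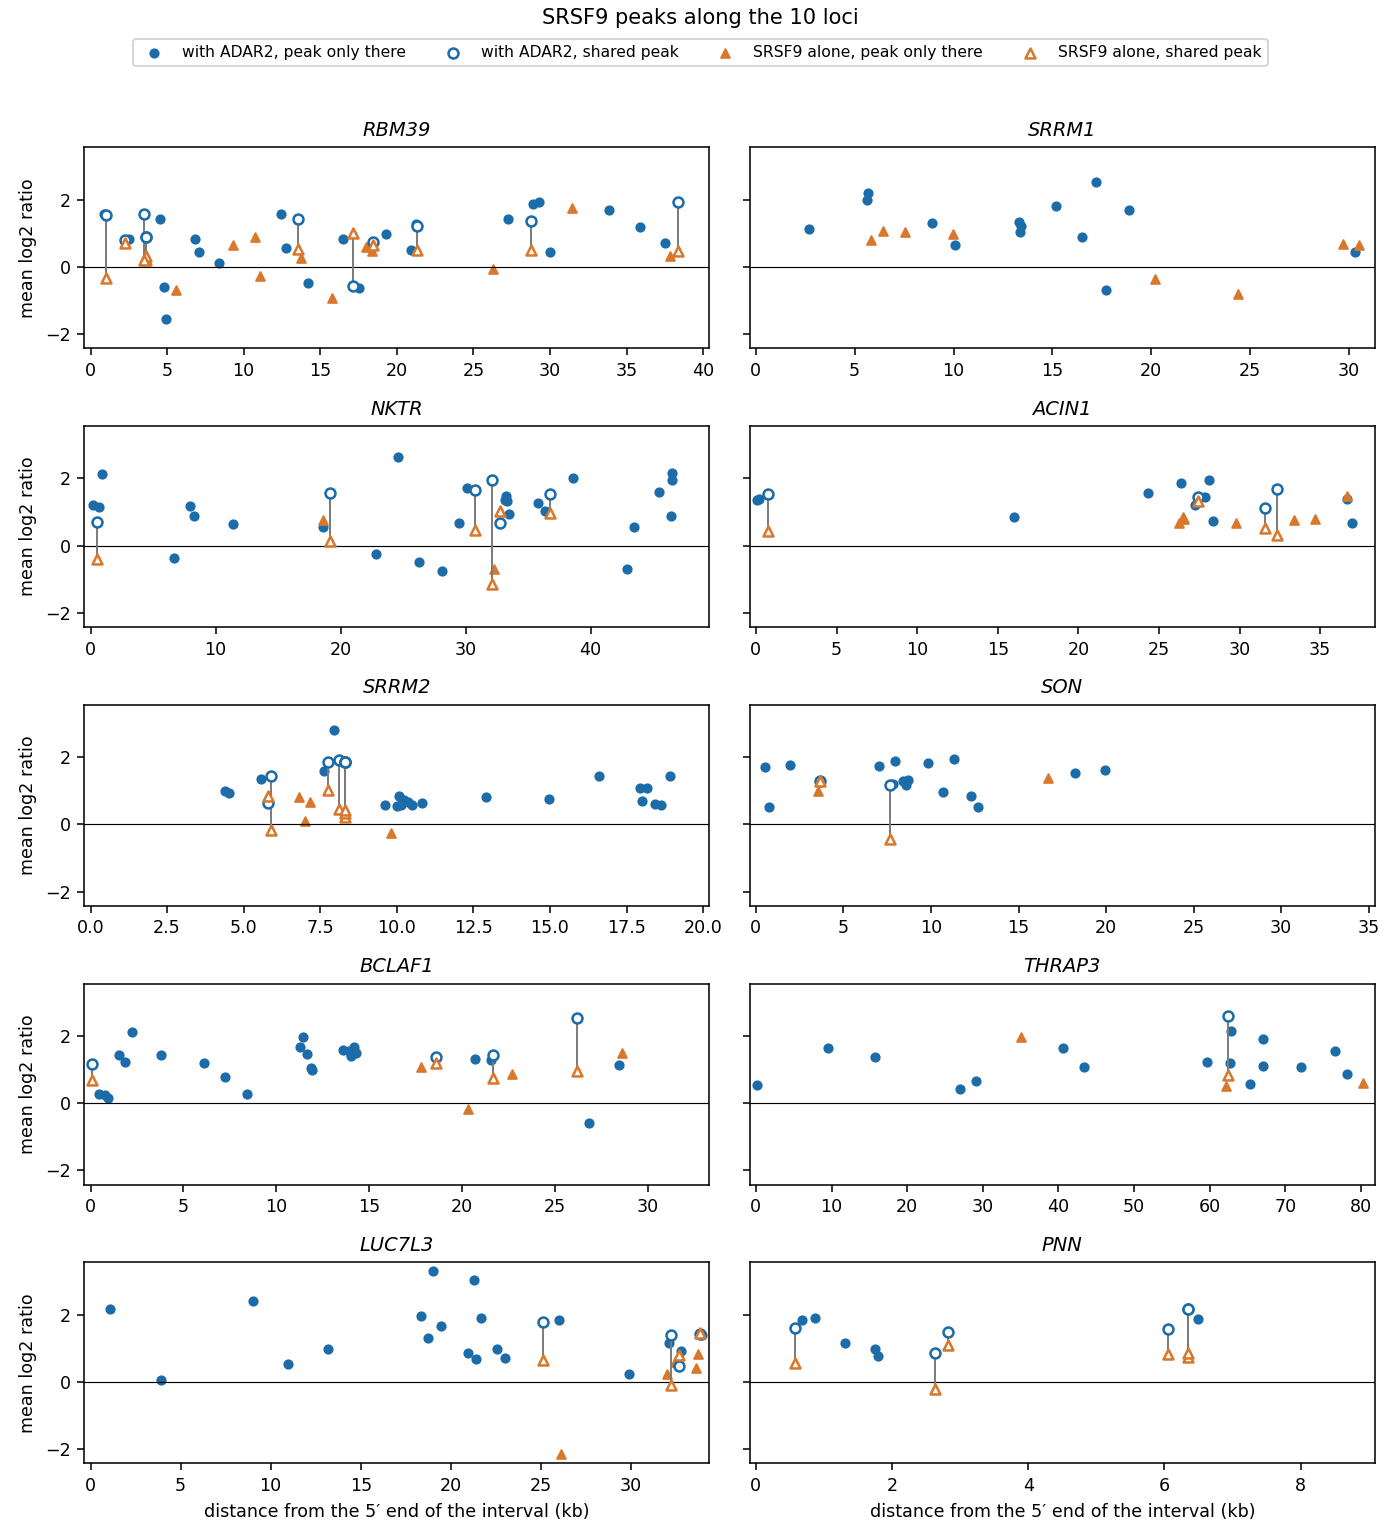
Mean log2 ratio over the 2 libraries of a condition (vertical axis) for each peak against its distance in kb from the 5′ end of the interval, with ADAR2 as circles and SRSF9 alone as triangles. Filled symbols are peaks of 1 condition, open symbols joined by a line are shared peaks, strands come from GENCODE release 29, and rows with repeated coordinates are each drawn. The SON peaks lie in the 5′ and middle segments of the interval, and the LUC7L3 peaks with SRSF9 alone all stand in its 3′ segment.

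Peaks found only without ADAR2 often had a peak of the other condition nearby. Of the 46 in the 10 loci, 11 had a peak with ADAR2 within 100 nt, 23.9% (13.9 to 37.9), against 24.0% in the whole table, and 35 had one within 1 kb, 76.1% (62.1 to 86.1), against 63.2%. The median distance was 384 nt in the loci and 497 nt in the table. Seen from the other side, 78 of the 179 peaks only with ADAR2 had a peak with SRSF9 alone within 1 kb, 43.6% (36.5 to 50.9), against 10.3% in the table, where peaks with SRSF9 alone were also a smaller share. Shared peaks were the widest class in the loci, with a median of 54 nt, against 51 nt in the table. Peaks only with ADAR2 were 40 nt wide at the median in the loci and 34 nt in the table, and those only without it were 32 nt in both. None of these differences from the table was tested.

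The shared peaks allow the conditions to be compared library by library. The 45 rows held 4 repeats of the same coordinates, which were averaged, and left 41 regions in 9 loci. Some neighbouring regions carried the same value in a library, so the 41 are not all separate readings. Examples are PNN from 39650036 and 39650246, SRRM2 from 2810084 and 2810218, and RBM39 from 34327318 and 34327444. Most regions had higher ratios with ADAR2. The median was 1.65 and 1.20 in the first and second library with ADAR2, and 0.90 and 0.26 in those with SRSF9 alone. Over all 3645 shared regions of the table the medians were 1.31 and 1.02 with ADAR2, and 0.95 and 0.20 with SRSF9 alone. The difference, with ADAR2 minus SRSF9 alone, had a median of 0.91 on the log2 scale over the 41 regions and of 0.62 over all 3645, and was above 0 in 35 of the 41, 85.4%, and in 73.6% of all. Without the first library with ADAR2 the median was 0.55 over the 41 regions and 0.50 over all. Both libraries with ADAR2 exceeded both with SRSF9 alone in 26 of the 41 regions, 63.4%, against 49.9% of all, and lay below both in 2, 4.88%, against 9.22%. When the median of a library over the shared regions was subtracted from it, which lowers every difference by the same amount, the median over the 41 was 0.32, against 0.03 over all. After centring both libraries with ADAR2 were above in 17 regions, 41.5%, against 33.8% of all, and below in 9, 22.0%, against 30.5%.

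By limma with Benjamini-Hochberg adjustment over all 3645 regions, 7 of the 41 regions passed as higher with ADAR2, 17.1%, where 18.5% of all regions did, and 1 passed as lower, 2.44%, where 2.41% did. These shares were close to those of the table. Without the second SRSF9-only library the median difference was 0.64 over the 41 regions, against 0.27 over all regions. After centring, 2 regions passed as higher, where 12.6% of all did, and 1 as lower, where 10.9% did. Before centring limma gave every region the same standard error of 0.59, so these p-values do not use a region's own spread. The table also keeps only peaks whose libraries of a condition have the same sign.

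The largest rise in the loci was in NKTR, from 42674096 to 42674171 on chromosome 3, and its difference ranked 43 among all 3645 shared regions. The log2 ratio there was 2.52 and 1.41 with ADAR2, and -1.22 and -1.05 with SRSF9 alone. Both libraries with ADAR2 were above 0 and both with SRSF9 alone below it. This pattern held in 7 of the 45 shared rows of the loci, and in 852 of all 3802 shared rows. The mean was 1.96 ± 0.78 with ADAR2 and -1.14 ± 0.12 with SRSF9 alone (SD, n = 2 each), a difference of 3.10 ± 0.59 (SE, limma adjusted p = 1.12e-05, with 0.000602 after centring and 8.64e-08 to 0.0870 over the alternatives). It passed without the second library with ADAR2, and in the 4 fits that left out 1 library no other region of the loci passed. The value of -1.05 stood in the same column of the NKTR peak from 42674251, 79 nt away, so the pair of rows does not give 2 separate readings of that library.

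In RBM39, 1 region passed by limma as higher with ADAR2 and 1 as lower. Of its 10 shared regions, 9 had a difference above 0, and in 6 both libraries with ADAR2 exceeded both with SRSF9 alone. From 34329884 to 34330041 on chromosome 20 the ratio was 1.71 and 1.38 with ADAR2, and -0.13 and -0.53 with SRSF9 alone, a difference of 1.87 ± 0.59 (SE, limma adjusted p = 0.0124, with 0.0270 after centring and 0.00390 to 0.310 over the alternatives). This region lies about 1 kb from the 5′ end of the interval. From 34313870 to 34313893 it was -0.52 and -0.62 with ADAR2, and 1.83 and 0.20 with SRSF9 alone, a difference of -1.58 ± 0.59 (SE, limma adjusted p = 0.0397, with 0.00129 after centring and up to 0.332 over the alternatives). The groups did not overlap in either region. The fall was -0.77 without the first SRSF9-only library and -2.40 without the second. The falling region was the only one of the 41 that was above 0 with SRSF9 alone and below 0 with ADAR2. Among all 3802 shared rows of the series, 84 had this pattern.

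The speckle scaffolds had 3 of the regions that passed as higher with ADAR2. The difference was above 0 in 4 of 5 SRRM2 regions and in 1 of 2 SON regions. In SRRM2 from 2807877 to 2807934 on chromosome 16 the ratio was 2.07 and 0.82 with ADAR2, and -0.14 and -0.21 with SRSF9 alone, a difference of 1.62 (limma adjusted p = 0.0350, with 0.0963 after centring and 0.0159 to 0.634 over the alternatives). It was 0.99 without the first library with ADAR2. From 2810218 to 2810423, where 3 rows were averaged, the ratio was 2.29 and 1.43 with ADAR2, and 0.55 and 0.12 with SRSF9 alone, a difference of 1.52 (limma adjusted p = 0.0486, with 0.106 after centring and 0.0307 to 0.593 over the alternatives). In SON from 34922591 to 34922709 on chromosome 21 it was 1.66 and 0.67 with ADAR2, and -0.43 and -0.42 with SRSF9 alone, a difference of 1.59 (limma adjusted p = 0.0382, with 0.0977 after centring and 0.00908 to 0.592 over the alternatives). The groups did not overlap in these 3 regions, and none of the 3 passed after centring. The other SON region, from 34918621 to 34918667, had 1.34 and 1.21 with ADAR2, and 1.83 and 0.74 with SRSF9 alone, a difference of -0.01. The SRRM2 region with the lowest difference, -0.21, was from 2807784 to 2807789, just before the one from 2807877. It had 1.16 and 0.11 with ADAR2, and 1.31 and 0.38 with SRSF9 alone.

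THRAP3 and BCLAF1 each had 1 region that passed as higher with ADAR2, and in both the size of the difference moved with a single library left out. The THRAP3 region, from 36752395 to 36752439 on chromosome 1, had 2.59 and 2.58 with ADAR2, and 1.66 and 0.03 with SRSF9 alone. The difference was 1.74 (limma adjusted p = 0.0218, with 0.0551 after centring and 0.0207 to 0.297 over the alternatives), and it was 2.56 without the first SRSF9-only library and 0.93 without the second. The BCLAF1 region that passed, from 136584796 to 136584804 on chromosome 6, had 1.65 and 3.38 with ADAR2, and 1.88 and 0.06 with SRSF9 alone. Its groups overlapped, and the difference of 1.55 (limma adjusted p = 0.0447, with 0.204 after centring and 0.0431 to 0.675 over the alternatives) was 0.69 without the second library with ADAR2 and 0.64 without the second SRSF9-only library. It was 2.41 without the first library with ADAR2 and 2.46 without the first SRSF9-only library. All 4 BCLAF1 regions had a difference above 0, and in 2 of them, neither the one that passed, both libraries with ADAR2 exceeded both with SRSF9 alone. The BCLAF1 region with the smallest difference, 0.19, was from 136592362 to 136592443.

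No region of PNN, ACIN1 or LUC7L3 passed by limma with a single prior variance for all regions. With the prior variance as a trend, 1 LUC7L3 region passed. All 5 PNN regions had a difference above 0, from 0.39 to 1.37, and in 4 both libraries with ADAR2 exceeded both with SRSF9 alone. The PNN regions from 39650036 and 39650246 carried the same value in the second SRSF9-only library, so they are not separate readings of it. The largest PNN difference was from 39650246 to 39650447 on chromosome 14, with 2.44 and 1.88 with ADAR2, and 1.04 and 0.54 with SRSF9 alone (limma adjusted p = 0.0805, and 0.0643 to 0.593 over the alternatives). All 4 ACIN1 regions were also above 0, from 0.12 to 1.35, the largest from 23532690 to 23532722, with 2.11 and 1.25 with ADAR2, and 0.66 and 0.00 with SRSF9 alone (limma adjusted p = 0.0840, and 0.0817 to 0.660 over the alternatives). In LUC7L3 the differences ran from -0.33 to 1.48 and 2 of 4 were above 0. Its largest was from 48828155 to 48828285 on chromosome 17, with 1.64 and 1.12 with ADAR2, and -0.07 and -0.13 with SRSF9 alone (limma adjusted p = 0.0570). This is the region that passed with the trend (limma adjusted p = 0.0309), and its adjusted p was 0.0309 to 0.532 over the alternatives. Its lowest, from 48828617 to 48828674, had 0.65 and 0.27 with ADAR2, and 0.98 and 0.61 with SRSF9 alone (limma adjusted p = 0.734), and its difference was -0.15 without the first SRSF9-only library. In NKTR 5 of 6 differences were above 0, and the lowest was -0.35, from 42674714 to 42674767, where 0.62 and 0.74 with ADAR2 both lay below 1.24 and 0.82 with SRSF9 alone (limma adjusted p = 0.716). That difference was -0.14 without the first SRSF9-only library.

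**Figure D4:**
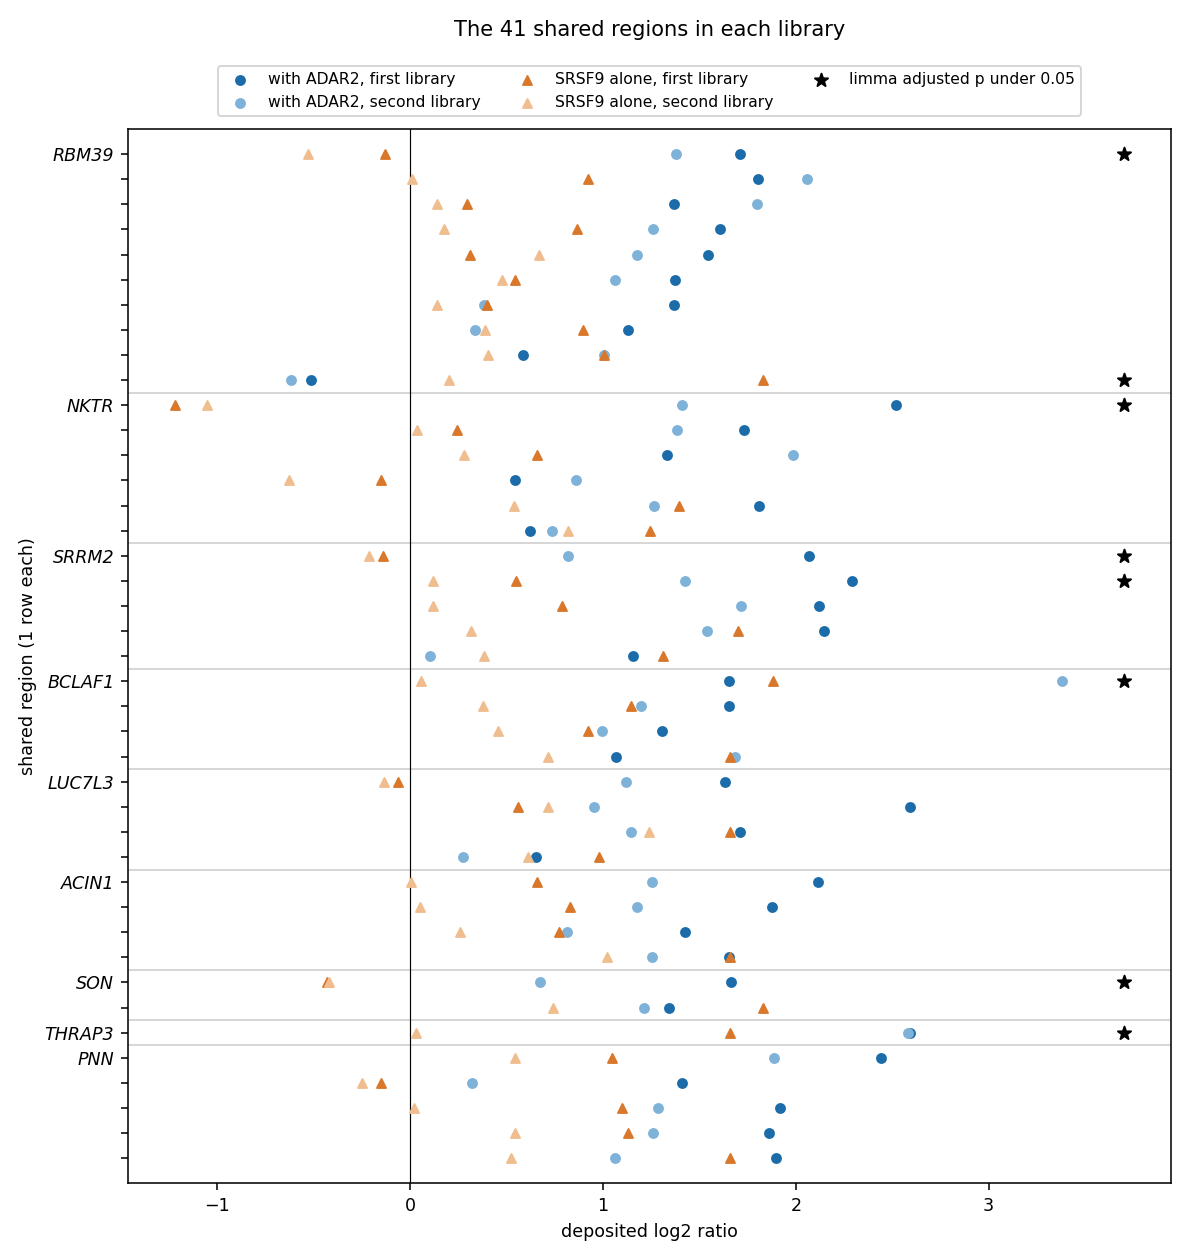
Deposited log2 ratio of the 41 shared regions in each of the 4 libraries, one row per region, grouped by locus and ordered by the difference. Circles are the libraries with ADAR2, triangles those with SRSF9 alone, and stars mark the 8 regions with a limma adjusted p under 0.05. In 26 rows both circles lie right of both triangles, and in 1 row each of RBM39 and NKTR both lie left.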

How the data were processed

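The authors deposited 1 table of peaks on hg19, the build per the submitters' processing notes, with a log2 ratio per library and a class per peak. The sources used here do not name the aligner, the peak caller, the ratio's denominator or any threshold. That the ratios are log2 was read from their sign and spacing and is stated by no source. A value of 0 is a placeholder where a condition has no peak, and with the class column it shows which columns hold which condition. Members were the rows overlapping the intervals by at least 1 nt. The members, the naming rule (extreme peaks per class and locus, extreme shared regions and all past the threshold) and the lists were chosen with earlier results of these data known.

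Shares carry 95% Wilson intervals computed with scipy 1.17.1. Shared regions, with rows of identical coordinates averaged, were compared with limma 3.58.1 in R 4.3.3, 2 libraries against 2, with Benjamini-Hochberg adjustment over all 3645 and a threshold of 0.05. The fit was tested on simulated data with the same spread in every library and no shift between libraries. The data here differ from that, so the test does not bear on the p-values given. Gene strands and overlapping genes come from GENCODE release 29, on GRCh38, by name only. Some annotated genes are longer there than the interval, such as SRRM1 (41.6 kb against 31 kb) and LUC7L3 (36.7 kb against 34 kb). Segments and ends are therefore those of the interval and not of the gene. No sequence is shown, since no genome of the files' build was used here. Alternatives covered scaling, limma's prior variance as a trend, filters, intervals, merging and left-out libraries. Leaving out single loci, or those overlapped by another gene, was added after seeing the data.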

Additional observations from a re-analysis of the deposited data

How the results depend on the processing

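Of the 41 shared regions of the loci, limma called 7 higher and 1 lower with ADAR2. With each library centred it called 2 higher, with the median difference over the loci at 0.32. Among the 33 regions of the loci above 0 in all libraries it called 0 higher and 0 lower. Of these, 9 had an unadjusted limma p under 0.05, against 422 of 2528 over the whole table. With the prior variance as a trend it called 5 higher, and with 1 library left out 0 to 1 higher and 0 to 0 lower. Over the whole table, 675 and 88 regions passed, 396 were lower after centring, 77 were higher and 5 lower among those above 0, and with 1 library left out 0 to 199 were higher and 0 to 22 lower. In fits without an SRSF9-only library limma called 0 over the table, with 1405 (without the first) and 1051 (without the second) at an unadjusted p under 0.05. The lone library left in an arm is there assumed to vary like the others. The cause was not tested. No paired analysis was possible because the columns carry no replicate number.

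With a ratio above 1 required, 93.8% of the loci's peaks were only with ADAR2, 3.75% only without and 2.50% shared. Shared peaks had to pass in the libraries of both conditions, the low second SRSF9-only library among them. The other alternatives, among them the 6 loci not overlapped by another protein-coding gene, left these shares within their intervals, and without any single locus the share only with ADAR2 was 64.7% to 69.3%. Centred on the table's medians, the loci's median was 0.26 and 0.00 in the libraries with ADAR2, and -0.15 and -0.009 in those with SRSF9 alone. These values are the offsets of the loci from the table.

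Of the 41 differences, 35 were above 0 and 28 after centring. Among the 18 named regions the difference changed sign in 13 refits, all in regions that did not pass. After centring the named ones that changed sign were -0.48 (ACIN1 from 23537533), -0.20 (PNN from 39646807) and -0.40 (BCLAF1 from 136592362). With 1 library left out the difference ran from -0.20 to 0.43 in that ACIN1 region, from -0.18 to 0.96 in that PNN region, from -0.28 to 0.66 in that BCLAF1 region, from -0.74 to 0.31 in SRRM2 from 2807784 and from -0.55 to 0.54 in SON from 34918621.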

Other observations

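Peaks with ratios below 0 in both libraries were uneven over the loci. Of the 11 such peaks only with ADAR2, 5 lay in NKTR, with means from -0.76 to -0.25, and 4 in RBM39, with means from -1.54 to -0.49, while BCLAF1 and SRRM1 had 1 each. SRRM2, SON, PNN, ACIN1, THRAP3 and LUC7L3 had 0 of them. Over the 10 loci they made up 6.15% (3.47 to 10.7, Wilson) of the peaks only with ADAR2, against 7.40% in the table. Of the 46 peaks only without ADAR2, 10 were below 0 in both libraries, 21.7% (12.3 to 35.6), against 23.4% in the table, and 4 of the 10 lay in RBM39.

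The value 1.658 recurred in the first SRSF9-only library, in 9 of the 91 peaks of the loci (9.89%) and in 586 of 8565 peaks of the table (6.84%). It stood in 1 shared region each of THRAP3, PNN, ACIN1, LUC7L3 and BCLAF1 and in peaks only without ADAR2 of SRRM1, SON and BCLAF1. The commonest value of that library over the table was 2.243, in 911 of 8565 peaks (10.6%). In the loci it stood in the highest peaks only without ADAR2 of THRAP3 and RBM39. With ADAR2, 1.069 recurred in the first library, in 6 of 224 peaks of the loci and 5928 of 75751 in the table. In the second, 1.06 recurred in 11 and 6245.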
